A study of Rattus norvegicus with 14 samples.

Results

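Vitamin D is a steroid hormone precursor that the liver and kidney convert to its active form. The active hormone binds the vitamin D receptor, which pairs with a retinoid X receptor on DNA and switches target genes on or off. In skeletal muscle the receptor is scarce compared with gut or kidney, and a lack of vitamin D is linked with weakness, slow repair and loss of muscle mass.

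The comparison described here asked which genes of rat plantaris, a fast calf muscle, still differed from controls once vitamin D had been returned to the diet. It set 4 muscles from Wistar rats that had a vitamin D depletion diet followed by a repletion diet against 4 muscles from Wistar rats kept on a control diet (vitamin D at 1000 IU/kg). These are 8 of the series' 14 arrays, chosen by sample title. The other 6, from Wistar rats on a depletion diet, entered the fit to estimate slide effects and the spread between arrays. The SEs, intervals and p-values below therefore rest on all 14 arrays. Otherwise the depletion arrays are given only beside the repletion values. Feeding times, the ages of the rats and the vitamin D content of the other diets were not given in the labels used here. Replicates are called biological in the labels without naming animals, so the p-values measure the spread between these samples.

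Each muscle's RNA was read on 1 Agilent 1-colour array, and levels below are log2 signals relative to the array's own 75th percentile. The arrays came on 5 slides, and this matters for the comparison because only slides 1 and 2 held both diets. Slide 1 carried control replicates 1 and 2 and repletion replicate 1, and slide 2 carried control replicate 3 and repletion replicate 2. Control replicate 4 was on slide 4, repletion replicate 3 on slide 3 and repletion replicate 4 on slide 5, each next to depletion arrays. The first principal component of all 14 arrays held 39.1% of the variance, of which 99.6% lay between slides and 1.7% between diets. Differences are therefore given from a linear model in limma with slide as a block, as repletion minus control ± SE, and need not equal the difference of the plain group means. The share of spots well above background was 82.8% to 88.1%, no spot was saturated, and 7 of the 8 fixed muscle markers passed the filter (Mylpf did not). Acta1, skeletal actin, read from 7.75 to 8.23 on the 8 arrays and differed by 0.08 ± 0.11.

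No gene was called different from control after repletion. Of 26387 probes, 0 passed an adjusted p under 0.05 (0.0%), and the lowest adjusted p was 0.99998 by limma with Benjamini-Hochberg adjustment. At an unadjusted p under 0.05 there were 524 probes (1.99%), of which 342 were higher (1.3%) and 182 lower (0.69%) after repletion, against the 5% that unchanged probes give on average. Over the 17452 genes, each represented by its brightest probe, 368 (2.11%) had such a p, 236 higher (1.35%) and 132 lower (0.756%). The 4 repletion arrays did not overlap the 4 control arrays for 222 genes (1.27%), lying above them for 143 (0.819%) and below them for 79 (0.453%).

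How far the muscles could still be from control is set by the width of the intervals. The median SE of a gene's difference was 0.187, and the median 95% interval reached 0.419 to either side. The interval lay inside a 2-fold difference in either direction for 14278 genes, or 81.8%, and inside a 1.5-fold difference for 9660 genes, or 55.4%. For the remaining genes the arrays were too few to bound the difference that tightly. The estimates themselves passed 2-fold for 190 genes, 136 higher and 54 lower. The median difference of all genes was 0.02.

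**Figure D1:**
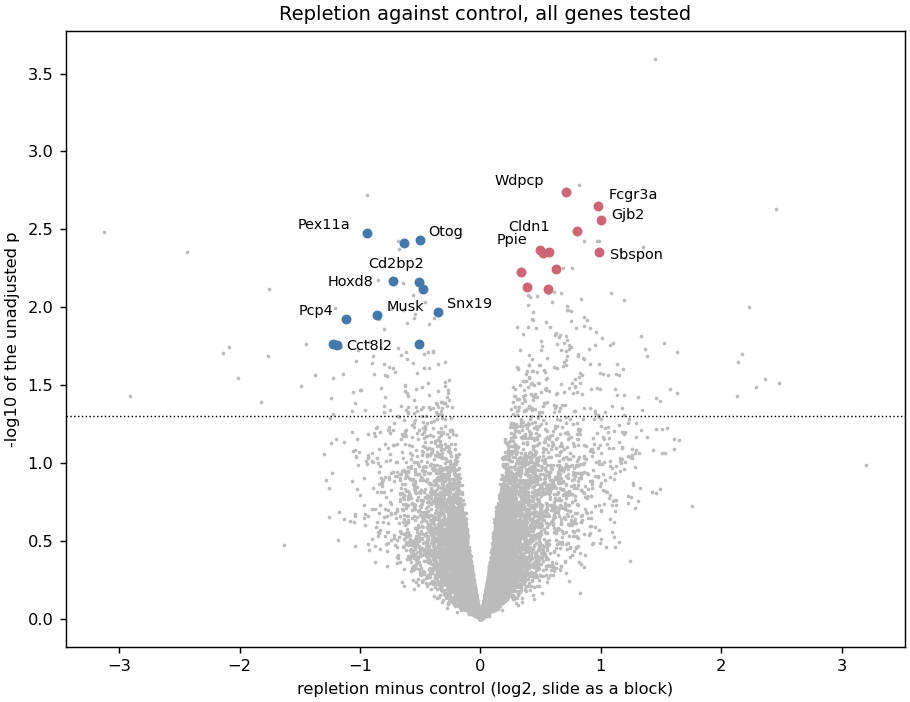
Each point is 1 of 17452 genes: the log2 difference, repletion minus control, from the slide-blocked fit on the horizontal axis and -log10 of the unadjusted p on the vertical axis. The dotted line marks p of 0.05, and the coloured points are the 12 genes per direction described in the text, most of them labelled; grey points above them are predicted loci or genes that were dim or differed in sign between slides 1 and 2. No point passes after adjustment.

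The genes described next are the 12 in each direction with the smallest unadjusted p among 7117 genes that were well above background on all 8 arrays and had the same sign on slides 1 and 2. They were chosen on this contrast, so their values are a description and none of them was called.

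Among the 12 higher genes, Fcgr3a, a low-affinity receptor for antibody on macrophages and natural killer cells, was one of 3 whose arrays did not overlap. Fcgr3a read -6.74, -6.49, -6.08 and -6.40 in control replicates 1 to 4 and -6.00, -5.30, -5.35 and -5.29 in repletion replicates 1 to 4. The difference was 0.98 ± 0.24, or 1.97-fold with a 95% interval from 0.45 to 1.505 in log2, and it was 0.62 on slide 1 and 0.78 on slide 2. Its probe lies at chr13:86877181-86877240 on the plus strand of rn4. This is a dim probe, and with normexp background correction in place of the scanner's processed signal the difference of Fcgr3a was -0.03. Ppie, a prolyl isomerase that works in the spliceosome, read -1.85, -2.01, -1.90 and -1.96 in controls and -1.32, -1.42, -1.53 and -1.64 after repletion. Every repletion array was above every control array, and the difference of 0.49 ± 0.13 stayed at 0.38 with normexp. Gzmk, a granzyme of T and natural killer cells, differed by 0.52 ± 0.14 without overlap, and by -0.03 with normexp.

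The other nine higher genes overlapped on at least 1 array. Wdpcp, a planar cell polarity protein needed for cilia, had the smallest p with a difference of 0.71 ± 0.17, but repletion replicate 4 at -6.49 lay within the control range of -6.83 to -6.15, and with normexp the difference was -0.03. Gjb2, which encodes the gap junction protein connexin 26, read -4.98, -5.07, -4.16 and -3.54 in controls and -3.64, -3.02, -3.73 and -3.97 after repletion, a difference of 1.00 ± 0.25. Cldn1, a tight junction claudin, differed by 0.81 ± 0.21. With normexp, and with the authors' own normalized values, the differences were 0.38 and 0.54 for Gjb2 and 0.18 and 0.28 for Cldn1. For both, control replicate 4 was the control array that reached into the repletion values. The matrix gene Sbspon differed by 0.99 ± 0.27 (0.26 with normexp), the transporter gene Slc16a11 by 0.57 ± 0.15 and the bone morphogenetic protein receptor gene Bmpr1b by 0.63 ± 0.18. Ppp1r3d, which targets a phosphatase to glycogen, differed by 0.34 ± 0.10 on its brightest probe and by 0.02 ± 0.10 on another probe. Pcsk1n, an inhibitor of a prohormone convertase, differed by 0.39 ± 0.11, and by 0.17 with normexp. Phf11, a PHD finger gene, differed by 0.56 ± 0.17, with 0.38 and 0.26 on its other probes.

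Among the 12 lower genes, 4 had arrays that did not overlap. Pex11a, which drives the division of peroxisomes, read -0.95, -0.53, -0.76 and -0.70 in controls and -1.49, -2.01, -1.25 and -1.07 after repletion. Every repletion array was below every control array, by 0.94 ± 0.24 in the fit (1.93-fold; interval -1.49 to -0.40). The difference was -0.75 on slide 1 and -1.25 on slide 2, and -0.88 with normexp. The Pex11a probe lies at chr1:135513885-135513944 on the minus strand of rn4. Hoxd8, a homeobox transcription factor, read -3.19, -2.89, -2.69 and -2.68 in controls and between -3.67 and -3.53 on all 4 repletion arrays, a difference of -0.73 ± 0.21. Cct8l2, a chaperonin-like gene, differed by -1.19 ± 0.41 and read from -7.23 to -7.06 after repletion against -6.65 to -5.20 in controls. Snx19, a sorting nexin, differed by -0.35 ± 0.11 on its brightest probe and by 0.05 ± 0.11 and -0.13 ± 0.14 on the other two.

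The remaining lower genes included 2 with known roles in muscle tissue. Musk, the receptor kinase that organises the neuromuscular junction, read -5.49, -6.33, -5.09 and -6.06 in controls and -6.55, -6.49, -6.27 and -5.89 after repletion, a difference of -0.86 ± 0.27 in which the groups overlapped. It was -0.53 with normexp and -0.19 with the authors' values. Angpt2, a vessel-remodelling ligand of the Tie2 receptor, differed by -0.51 ± 0.18, with -0.77 on slide 1 and -0.05 on slide 2. Pcp4, a modulator of calmodulin, differed by -1.12 ± 0.36 in the fit, although only repletion replicate 1, at -5.91, lay below the control range of -4.78 to -3.50. The carboxylesterase gene Ces1dl1 differed by -1.23 ± 0.43. With the authors' values Pcp4, Ces1dl1 and Cct8l2 differed by -0.50, -0.56 and -0.36. Otog, Cd2bp2, the homeobox gene Lbx2 and Ggnbp1 differed by between -0.64 and -0.47, and with the authors' values Otog, Lbx2 and Ggnbp1 by between -0.21 and -0.18.

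**Figure D2:**
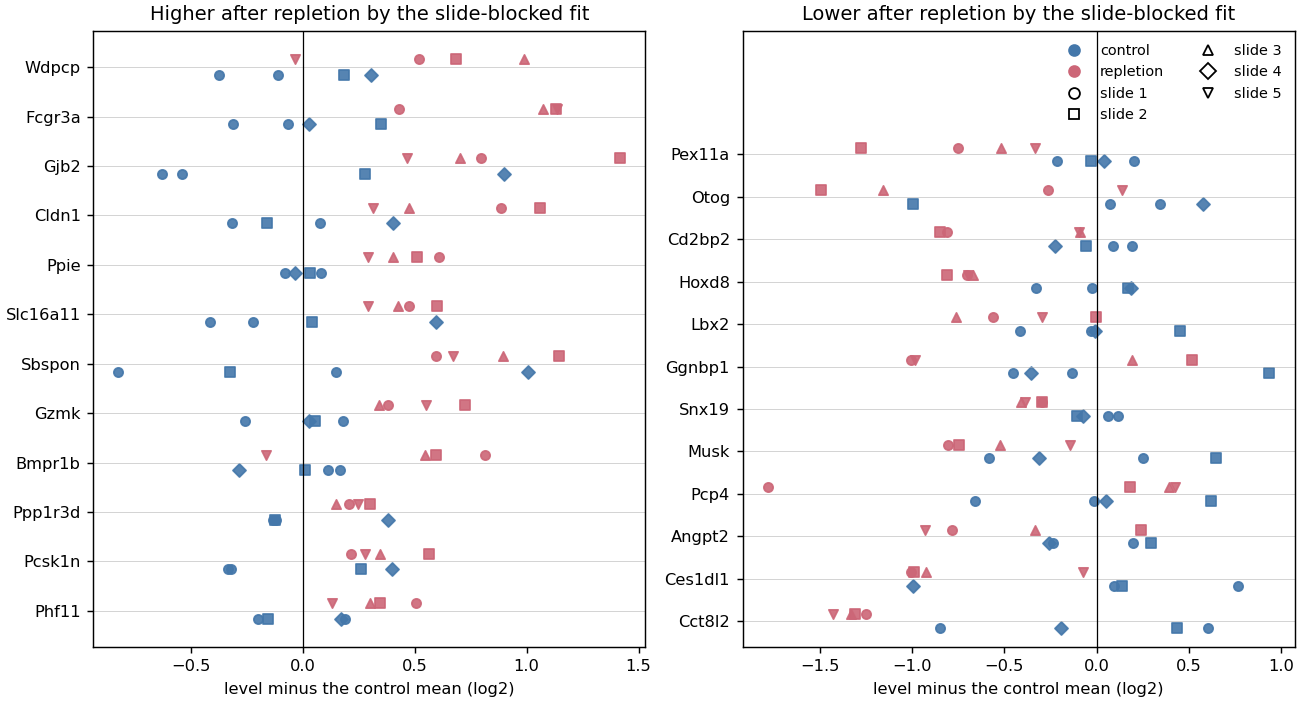
Levels of the 12 higher and 12 lower genes on each array, in log2 minus the gene's control mean, with the 4 control arrays in blue and the 4 repletion arrays in red and the slide given by the marker. Fcgr3a, Ppie and Gzmk on the left and Pex11a, Hoxd8, Snx19 and Cct8l2 on the right show no overlap, and the control arrays of Sbspon and Gjb2 span a wider range than the difference between diets.

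Gene lists of muscle, metabolic and immune biology were then read by the count and median of their members. None of the 49 lists held a called gene. The highest medians were those of macrophage markers, Schwann cell and myelin genes, complement, the interferon response and slow fibre genes. The lowest medians, nearer to 0, were those of adipocyte markers, the TCA cycle, BMP and TGF-beta signalling, respiratory complexes I and II to V and glycolysis. These values stand beside 54.4% of all genes being higher and the all-gene median of 0.02. At an unadjusted p under 0.05, 1.35% of all genes were higher and 0.756% lower. Lists were described in full mainly for having the highest or lowest medians on this contrast. Their medians are therefore a description.

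**Figure D3:**
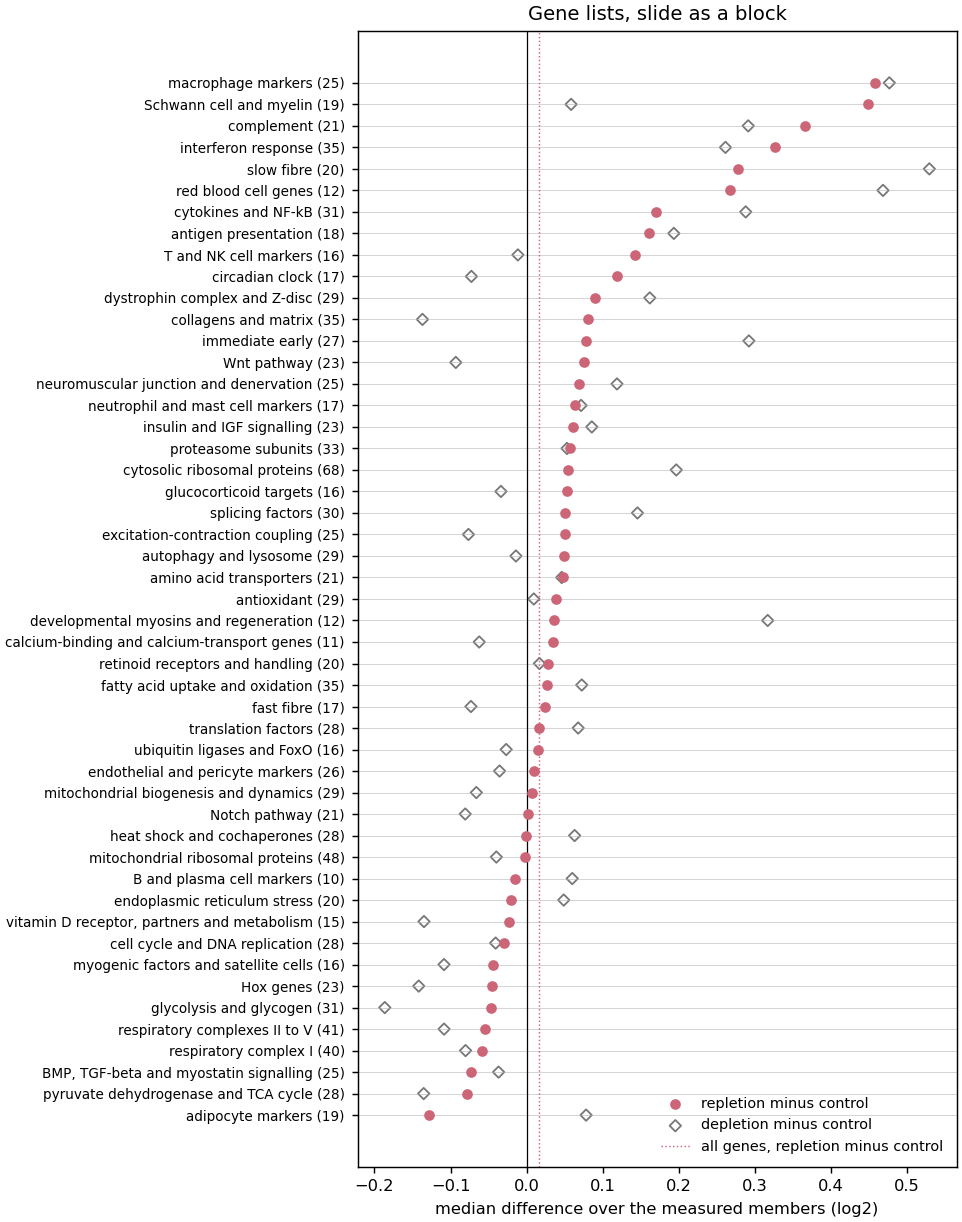
Median log2 difference over the measured members of each of 49 lists (number of members in brackets), with repletion minus control as filled circles and depletion minus control as open diamonds; the comparisons share the 4 control arrays. Macrophage markers are highest at 0.46 and adipocyte markers lowest at -0.13 for repletion, and the dotted line is the all-gene median.

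Macrophage markers had the highest median. Of 25 measured members 20 were higher after repletion, with a median of 0.46 and a range from -0.18 to 0.98. At an unadjusted p under 0.05, 3 members were higher, as were 1.35% of all genes. For 7 of the 25 the repletion arrays all lay above the control arrays, where 0.819% of all genes did. Besides Fcgr3a these were Siglec1, Aif1, Fcer1g, Tyrobp, C1qa and C1qb, of which Fcer1g, Tyrobp, C1qa and C1qb were named after their values were seen. Siglec1, a sialic acid-binding receptor of tissue macrophages, read -3.32, -3.39, -2.75 and -3.10 in controls and -2.02, -2.53, -2.65 and -2.60 after repletion, a difference of 0.96 ± 0.32. Aif1, an actin-binding protein of macrophages, read 0.19, 0.14, -0.10 and -0.36 in controls and 0.55, 0.73, 0.76 and 0.33 after repletion, a difference of 0.75 ± 0.26. Every repletion array was above every control array for both genes, and a dimmer probe of Aif1 gave 0.56 ± 0.24. Fcer1g and Tyrobp, adaptor proteins through which myeloid receptors signal, differed by 0.60 ± 0.30 and 0.53 ± 0.32. The lysosomal marker Cd68 differed by 0.45 ± 0.22 with overlap.

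Across whole arrays the macrophage list sat at one level after repletion. The median of its members, relative to the control mean, was 0.06, -0.08, 0.27 and -0.23 in control replicates 1 to 4 and 0.29, 0.36, 0.30 and 0.31 in repletion replicates 1 to 4. All repletion arrays were above all control arrays, though repletion replicate 1 exceeded control replicate 3 by little, and depletion arrays ran from -0.52 to 0.78. In the slide-blocked fit the list median was 0.48 for depletion minus control, on the same control arrays, beside 0.46 for repletion. It was 0.07 for repletion minus depletion, so the higher level was not particular to repletion. The summed signal told less, at 22.2 to 38.6 times the 75th percentile in controls and 37.1 to 43.3 after repletion. On the slides with both diets the median difference was 0.28 and 0.11, and a fit of the 8 arrays with slide as a block gave 0.20 in place of 0.46. The median was positive under all 30 alternative settings, from 0.20 to 0.65. In whole muscle, more macrophages and more of these transcripts per cell cannot be told apart.

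Complement genes, which encode the plasma cascade that marks targets for phagocytes, were higher for 19 of 21 measured members, with a median of 0.37. At an unadjusted p under 0.05, 2 members were higher, as were 1.35% of all genes. The C1q genes are in both this list and the macrophage list. C1qa, a chain of the recognition subunit, read 1.26, 1.12, 1.495 and 1.03 in controls and 1.51, 1.59, 1.68 and 1.84 after repletion, and C1qb differed by 0.59 ± 0.43 in the fit. Serping1, the inhibitor of the C1 proteases, read 2.75, 2.48, 2.59 and 2.38 in controls and 3.09, 2.97, 2.55 and 2.55 after repletion, a difference of 0.44 ± 0.14 with overlap. The C1s protease gene and the alternative-pathway gene Cfb differed by 0.47 ± 0.23 and 0.63 ± 0.26. The central component C3 differed by 1.11 ± 0.56 and, with normexp, by 0.23. The list median on slides 1 and 2 was 0.25 and 0.03, and the fit of 8 arrays with slide as a block gave 0.13. Depletion minus control, on the same control arrays, had a median of 0.29.

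The interferon response list had the most members at a small p. Of its 35 measured members, 31 were higher after repletion, with a median of 0.33. At an unadjusted p under 0.05 there were 9, all of them higher, as were 1.35% of all genes. Gbp2, an interferon-induced GTPase, read -0.16, -0.53, -0.62 and -0.16 in controls and 0.08, 0.15, 0.10 and -0.48 after repletion. Only repletion replicate 4 fell among the controls, and the difference was 0.58 ± 0.19 (1.49-fold). Rsad2, the antiviral enzyme viperin, differed by 1.01 ± 0.34, but by 1.44 on slide 1 and -0.39 on slide 2. Isg15, a ubiquitin-like modifier, read -1.50, -2.16, -1.50 and -0.96 in controls and -0.71, -1.28, -0.73 and -1.56 after repletion, a difference of 0.86 ± 0.31 with overlap. Oasl, related to the 2'-5' oligoadenylate synthetases, differed by 1.52 ± 0.53 in the fit and by -0.07 with normexp, with control replicate 2 at -9.35 far below the other arrays.

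Further members at an unadjusted p under 0.05 were named after their values were seen. The antiviral effectors Ifit3 and Mx1 differed by 0.82 ± 0.31 (0.36 with normexp) and 0.68 ± 0.29, the RNA sensor Ifih1 by 0.61 ± 0.26 (0.17 with normexp) and the immunoproteasome subunit Psmb9 by 0.33 ± 0.13. Psmb9 read -0.61, -0.59, -0.78 and -0.53 in controls and -0.48, -0.41, -0.26 and -0.45 after repletion, with no overlap. For the list as a whole, the per-array medians were 0.05, -0.04, -0.03 and 0.10 in controls and 0.28, 0.10, 0.34 and 0.14 after repletion. The within-slide medians were 0.22 and 0.14. Without a slide block the list median was 0.15, and it was positive under all 30 alternative settings. Against the same control arrays, the slide-blocked median of depletion was 0.26.

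Because these genes share a known DNA element, the 250 bases before each start were searched for it in RefSeq promoters of the GRCr8 build. The interferon-stimulated response element core is GAAA followed after any 2 bases by GAAA, taken on either strand with overlapping matches counted. It was present in 16 of the 26 interferon list members that had a promoter entry (61.5%), against 902 of 27457 promoters (3.29%). The list was made of genes known to respond to interferon, so this share follows from the choice of list. It does not depend on the differences between the diets and tells nothing about them. Parts of the promoters of Gbp2 and Rsad2 are shown for that element, and of Fcgr3a for the core of the motif of PU.1, a myeloid transcription factor, GAGGAAGT. Capitals mark the match, which in all of them is on the opposite strand, and each window ends at the base before the start.
Gbp2, chr2:234005577-234005726, plus strand: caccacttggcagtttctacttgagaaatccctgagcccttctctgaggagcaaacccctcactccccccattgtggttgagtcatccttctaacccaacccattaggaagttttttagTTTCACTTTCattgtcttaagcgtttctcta
Rsad2, chr6:48788121-48788280, minus strand: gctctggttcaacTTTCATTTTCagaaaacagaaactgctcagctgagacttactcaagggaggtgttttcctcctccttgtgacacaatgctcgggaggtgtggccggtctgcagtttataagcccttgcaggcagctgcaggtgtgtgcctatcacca
Fcgr3a, chr13:85782516-85782635, plus strand: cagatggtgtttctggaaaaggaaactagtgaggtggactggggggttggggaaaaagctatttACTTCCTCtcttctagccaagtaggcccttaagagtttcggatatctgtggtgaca
The match lies 31 to 22 bases before the start in Gbp2, 147 to 138 in Rsad2 and 56 to 49 in Fcgr3a. The PU.1 core was in 1 of the 18 macrophage list promoters, that of Fcgr3a, and in 2.04% of all promoters. The element bound by the vitamin D receptor with its retinoid partner (DR3, a direct repeat with a spacer) was in 0 of the 19 leading genes with a promoter entry, in 0 of the 11 on the vitamin D list and in 0.0947% of all promoters. With a pattern that rare, sets of this size would hold no match in any case, so these counts tell nothing about either set. Matches are letters in a window and not evidence of binding.

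Schwann cell and myelin genes had a median of 0.45, with 15 of 19 measured members higher, and 1 repletion array carried most of it. At an unadjusted p under 0.05, 3 members were higher, as were 1.35% of all genes. Mbp, myelin basic protein, read -2.12, -2.02, -2.06 and 0.37 in controls and -0.09, 3.32, -0.88 and -0.27 after repletion. Repletion replicate 2 was the highest array, and control replicate 4 was above all other controls. The difference of Mbp was 2.13 ± 0.88, and 0.93 without repletion replicate 2. A dimmer probe of Mbp gave -0.02 ± 0.31. Prx and Pllp, further myelin genes, differed by 0.99 ± 0.38 and 1.22 ± 0.56, and by 0.44 and 0.41 without that array. With normexp they differed by 0.39 and 0.11. The summed signal of the list was 33.7 times the 75th percentile in repletion replicate 2 and 4.88 to 8.12 on the other 7 arrays of the comparison. Without repletion replicate 2 the list median was 0.12, and with normexp it was 0.04. The macrophage median was also highest among the repletion arrays there, at 0.36 against 0.29 to 0.31.

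**Figure D4:**
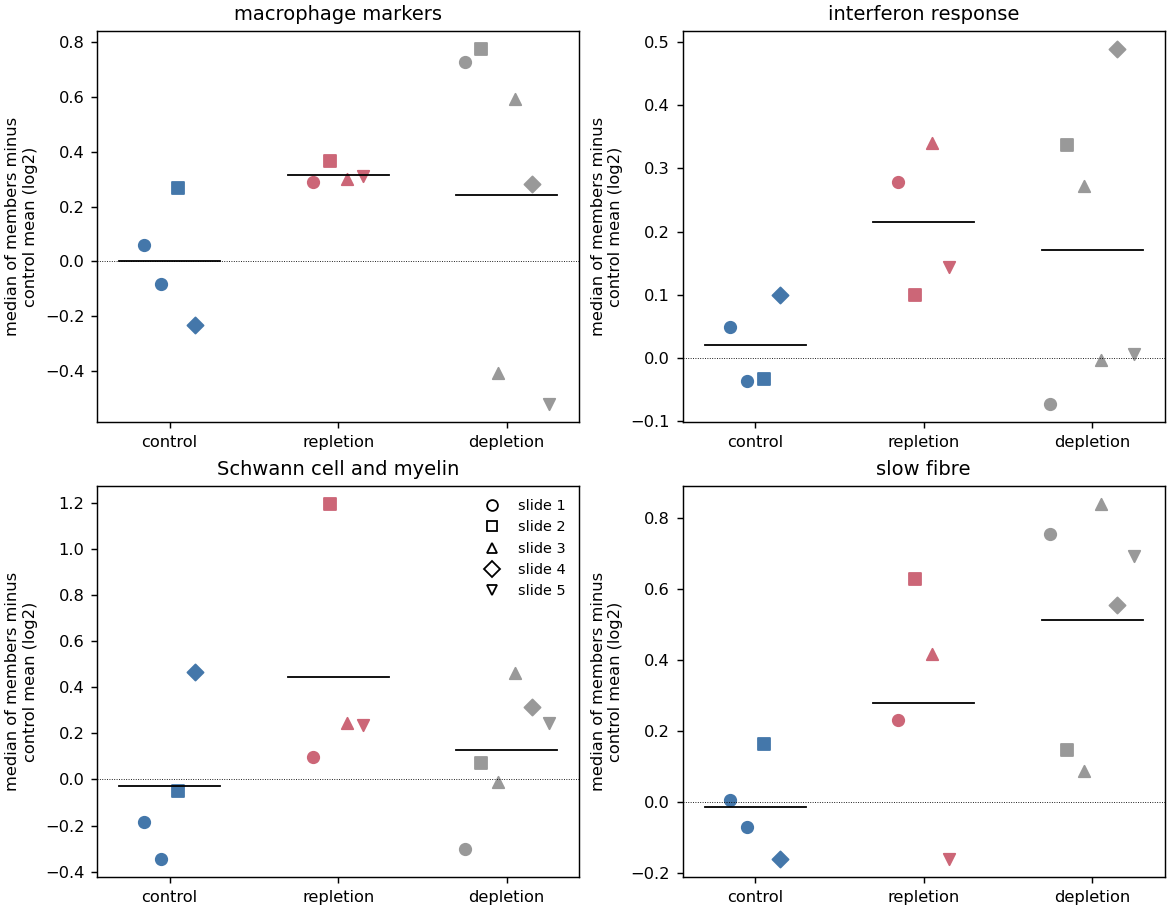
Median of the measured members of 4 lists on each array, in log2 relative to each gene's control mean, for 4 control, 4 repletion and 6 depletion arrays, with the slide given by the marker and the group mean by the bar. Macrophage markers lie between 0.29 and 0.36 on the repletion arrays, whereas Schwann cell and myelin genes reach 1.19 on 1 repletion array.

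Slow fibre genes, which encode the contractile proteins of oxidative type I fibres, were higher for 19 of 20 measured members with a median of 0.28. At an unadjusted p under 0.05, 1 member was higher, as were 1.35% of all genes. Myh7, the slow myosin heavy chain, read 6.08, 6.66, 6.85 and 6.49 in controls and 7.13, 7.62, 7.13 and 6.36 after repletion. Repletion replicate 4 was within the control range and the other three were above it. The difference was 0.57 ± 0.33, with an interval from -0.19 to 1.32, and it was 0.76 on slide 1 and 0.77 on slide 2. Atp2a2, the slow-muscle calcium pump, and Tnnc1, slow troponin C, had the same arrangement of arrays and differed by 0.73 ± 0.43 and 0.67 ± 0.41. A dimmer probe of Atp2a2 gave 0.40 ± 0.33. Myh7b, a related slow myosin, differed by 0.78 ± 0.34. Without repletion replicate 2 the differences were 0.31 for Myh7, 0.44 for Atp2a2, 0.36 for Tnnc1 and 0.49 for Myh7b. The list medians by array were 0.23, 0.63, 0.42 and -0.16 after repletion and -0.16 to 0.17 in controls, and depletion minus control on the same control arrays had a median of 0.53.

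Fast fibre genes, the bulk of this muscle, were close to control. Their median was 0.02 with 11 of 17 higher and a range from -0.15 to 0.10, each gene on its brightest probe. The fast myosins Myh1 and Myh4 differed by 0.05 ± 0.15 and 0.10 ± 0.51, and Myh2 by -0.15 ± 0.47. A dimmer probe of Myh2 gave -0.82 ± 0.58. The interval of Myh1 ran from -0.29 to 0.38, whereas that of Myh4 ran from -1.05 to 1.25, so a 2-fold difference of Myh4 would not have been detectable. The calcium pump gene Atp2a1, the actin-anchoring gene Actn3 and Tpm1, tropomyosin, each differed by 0.05 or 0.06.

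Of the energy metabolism lists, 4 had medians just below 0, while fatty acid uptake and oxidation had 19 of 35 members higher with a median of 0.03 and mitochondrial biogenesis had 16 of 29 higher with 0.01. Complex I of the respiratory chain had 28 of 40 members lower with a median of -0.06, complexes II to V had 31 of 41 lower with -0.05, pyruvate dehydrogenase and the TCA cycle had 20 of 28 lower with -0.08, and glycolysis had 20 of 31 lower with -0.05. None of the members of these 4 lists had an unadjusted p under 0.05, where 2.11% of all genes did. Sdha, the catalytic subunit of complex II, differed by -0.19 ± 0.13, the complex I subunits Ndufa7 and Ndufs8 by -0.26 ± 0.15 and -0.24 ± 0.21, and Idh3a, of the TCA cycle enzyme isocitrate dehydrogenase, by -0.27 ± 0.16. Idh3a read 1.36, 1.54, 1.61 and 1.61 in controls and 1.40, 1.19, 1.33 and 1.67 after repletion, with overlap. On slide 1 all 4 list medians were positive, between 0.11 and 0.26, and on slide 2 they were between -0.23 and -0.08. Without repletion replicate 1 the medians ranged from -0.25 to -0.19, and with only the 8 arrays and slide as a block those of complex I, complexes II to V and glycolysis were 0.01, 0.02 and 0.12. The glycolytic genes Pkm and Pgam1 differed by -0.29 ± 0.29 and -0.11 ± 0.14. Ldhb, the member of the glycolysis list with the smallest p, went the other way at 0.38. It was positive under all 30 alternative settings, from 0.21 to 0.64. Ppargc1a, the coactivator that drives mitochondrial biogenesis, differed by -0.34 ± 0.30.

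The vitamin D system itself showed no difference beyond its error in the receptor. Vdr read -4.13, -4.24, -4.78 and -3.09 in controls and -3.96, -4.95, -3.63 and -3.76 after repletion, a difference of -0.17 ± 0.25 with an interval from -0.74 to 0.39. The groups overlapped. Cyp27b1, the enzyme for the last step to the active hormone, was -0.03 ± 0.13 from control (-0.33 to 0.27), and the receptor's partner Rxra by 0.07 ± 0.17. Cyp24a1, which degrades the hormone, and Cyp2r1, which makes its circulating form, did not pass the filter and are not measured here. Of 15 measured members 6 were higher and 9 lower, with a median of -0.02. Dhcr7, which diverts the skin precursor of vitamin D to cholesterol, was the 1 member at an unadjusted p under 0.05, at -0.48 ± 0.20. Of all genes, 0.756% were lower at such a p. It differed by -0.86 on slide 1 and -0.02 on slide 2. Lrp2, the receptor that takes up bound vitamin D, differed by 1.19 ± 0.57 at a very low signal and by -0.24 with normexp. Cyp27a1, a sterol hydroxylase, differed by -0.40 ± 0.23, and the coactivator gene Ncoa1 by 0.22 ± 0.13.

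The Notch and ubiquitin ligase lists lay around the median of all genes. The Notch pathway, which keeps muscle stem cells quiescent, had 11 of 21 members higher and a median of 0.00. Its target gene Hey2 read -3.70, -2.97, -2.83 and -2.93 in controls and -2.22, -2.38, -2.71 and -3.04 after repletion. The difference of 0.83 ± 0.32 had an unadjusted p under 0.05, and a dimmer probe gave 0.38 ± 0.43. Notch1, Hes1 and Hey1 differed by 0.03 ± 0.19, 0.09 ± 0.35 and -0.13 ± 0.29. Another probe of Notch1 gave 0.43 ± 0.22. Lfng, the lowest member of the list, differed by -0.54. The difference of Lfng was -0.86 without a slide block and -0.13 with only slides 1 and 2. The list of BMP, TGF-beta and myostatin signals had 16 of 25 members lower and a median of -0.07, which was 0.01 without repletion replicate 1. Smad9, a transducer of BMP receptors, differed by -0.55 ± 0.30, the myostatin antagonist gene Fst by -0.48 ± 0.36, Bmp4 by -0.07 ± 0.20 and Mstn, myostatin, by -0.27 ± 0.33. The muscle atrophy ubiquitin ligases Fbxo32 and Trim63 differed by -0.08 ± 0.28 and -0.07 ± 0.46, and their list had a median of 0.01 with 9 of 16 higher.

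Adipocyte markers had the lowest median, -0.13, with 12 of 19 lower and 7 higher. The fat-droplet coat gene Plin1 differed by -0.52 ± 0.25, and by -0.12 with the authors' values. Adipoq, the hormone adiponectin, differed by -0.51 ± 0.63 and the fatty acid carrier Fabp4 by -0.14 ± 0.19. Cidea went the other way, at 0.38 on its brightest probe and 0.21 ± 0.46 on another. It was positive under all 30 alternative settings, from 0.12 without repletion replicate 2 to 0.96 without repletion replicate 1. Without repletion replicate 1 the difference of Adipoq was 0.26. It read 0.08, 1.70, -0.21 and -1.34 in controls and -1.12, 0.40, 0.24 and 0.21 after repletion, so the groups overlapped and the control arrays were widely spread. Red blood cell genes had a median of 0.27 with 11 of 12 higher, but the medians on slides 1 and 2 were -0.08 and -0.12, and a fit of the 8 arrays with slide as a block gave -0.10. Hbb, beta globin, differed by 0.38 ± 0.38, and by -0.05 and -0.17 on the slides with both diets. Lists of T and natural killer cells, B cells, neutrophils and mast cells and endothelial cells had medians of 0.14, -0.02, 0.06 and 0.01. The part of cell mixture in the macrophage, complement, interferon and myelin values was not tested.

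The genes with the smallest p under depletion were then read on the repletion arrays. They are the 6 per direction with the smallest unadjusted p in depletion against control, where 0 of 26387 probes were called as well and 1275 (4.83%) had an unadjusted p under 0.05. Both differences below use the same 4 control arrays, so they are given side by side and not as a relation. For 3 of the 12 genes the repletion interval left out 0, as it did for 2.11% of all genes; the genes were chosen on the shared control arrays, so nothing is read from that count. Mns1, a sperm flagellar and ciliary protein, was 0.95 ± 0.23 from control under depletion and 0.71 ± 0.25 after repletion. It read -2.28, -3.20, -3.33 and -3.78 in controls and -2.35, -2.50, -2.25 and -2.85 after repletion, with overlap through control replicate 1. Hnrnpa1, an RNA-binding protein that regulates splicing, read 1.72, 1.76, 1.83 and 1.45 in controls and 1.98, 2.21, 2.12 and 1.89 after repletion. The groups did not overlap, and the differences were 0.76 ± 0.14 under depletion and 0.37 ± 0.15 after repletion, although another Hnrnpa1 probe gave -0.09 ± 0.18 after repletion. Bhmt, which makes methionine from betaine, differed by 0.50 ± 0.11 and 0.29 ± 0.12.

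For the other nine the repletion interval included 0. Birc6, a large inhibitor of apoptosis, read -1.93, -1.81, -2.04 and -1.98 in controls, -1.85, -2.002, -1.88 and -1.99 after repletion and -3.44 to -2.18, with a median of -2.70, under depletion. Repletion and control arrays covered one range and all 6 depletion arrays lay below it, with differences from control of -0.65 ± 0.16 under depletion and 0.17 ± 0.18 after repletion. Trit1, which modifies transfer RNA, was -0.60 ± 0.11 from control under depletion and -0.11 ± 0.12 after repletion. With depletion replicate 1, whose diet labels conflict, counted as repletion, the repletion difference of Birc6 was 0.00 and that of Trit1 -0.23. D2hgdh, a mitochondrial dehydrogenase of hydroxyglutarate, differed by -0.78 ± 0.20 and -0.44 ± 0.22, and Pi15, a protease inhibitor-like secreted protein, by -0.77 ± 0.16 and -0.34 ± 0.18. Ttc9 differed by 0.76 ± 0.18 and 0.38 ± 0.20, the kelch gene Klhl30 by -0.58 ± 0.13 and -0.22 ± 0.15 and the sulfotransferase gene Chst4 by -0.88 ± 0.22 and -0.33 ± 0.24. The transcription factor gene Rfx7 differed by 0.46 ± 0.11 and 0.17 ± 0.12, and the carbonyl reductase gene Cbr1 by 0.43 ± 0.11 and 0.15 ± 0.12. Fos, an immediate early gene, was 1.34 ± 0.34 from control under depletion and 0.41 ± 0.37 after repletion, and the latter was -0.15 without repletion replicate 1.

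**Figure D5:**
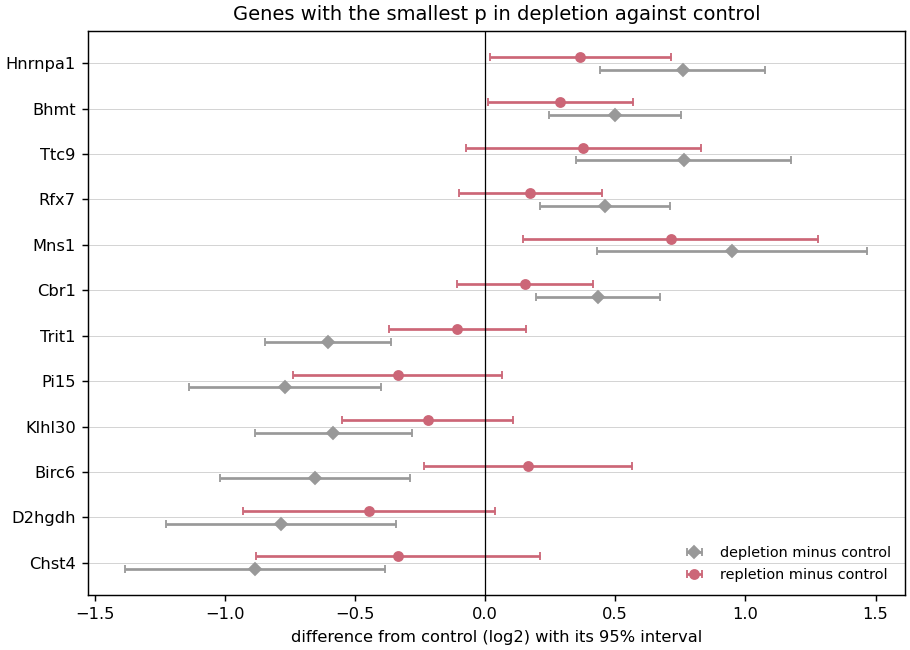
Difference from control with its 95% interval, in log2 from the slide-blocked fit, for the 12 genes with the smallest p in depletion against control: depletion (6 arrays) as grey diamonds and repletion (4 arrays) as red circles, both against the same 4 control arrays. The repletion intervals of Hnrnpa1, Bhmt and Mns1 leave out 0, and that of Birc6 is centred at 0.17 while depletion is at -0.65.

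One gene was measured in 1 group only. Slfn1, a schlafen gene of immune cells, was well above background on all 4 repletion arrays and on 0 control arrays. Its measured means were -6.98 after repletion and -8.29 in controls, which on this scale is at least 1.57-fold higher when the control mean is set to the lowest well-measured signal of those arrays (-7.63). The gene was chosen for being measured in the higher group only, so the direction follows from the choice. The adjusted p by limma was 1.00, and the difference was -0.13 with normexp and 0.17 with the authors' values.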

How the data were processed

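Total RNA of plantaris was labelled with Cy3 and hybridised in 1 colour, per the labels' protocols. Per the file headers, the deposited scanner output is intensity read by Agilent Feature Extraction 11.5.1.1, with a processed signal from which background was subtracted on each array. The authors' deposited series table of log2 values, normalized between arrays, served as an alternative; limma is named without a version in the submitters' processing notes.

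Control spots were left out, outlier-marked spots set to missing and repeated spots averaged; levels are log2 processed signal minus log2 of the array's 75th percentile. A probe was kept (26387 were) if 4 or more of the 14 arrays had it well above background and each group had 2 or more values. Of 30367 probes, 18892 were named through accession and 3306 through symbol in a RefSeq gene table, 1695 kept the file's name and 6474 had none. Coordinates of probes are on rn4, as in the files. All 14 arrays were fitted with slide as a fixed block using lmFit and eBayes of limma 3.58.1 (R 4.3.3). Benjamini-Hochberg adjustment was over all probes. The fit was tested on simulated data with 50 planted changes of each size. It recovered 6% of them at 1.5-fold, 40% at 2-fold, 76% at 3-fold and 80% at 4-fold, so most planted changes of up to 2-fold were missed. The simulated noise was independent between probes and arrays, so these shares need not hold for the measured arrays. Slide was read from the array barcode. The diet field of depletion replicate 1 reads as repletion, against its title; it was kept by title.

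Tables and figures were made with Python 3.11.15, numpy 2.4.6, pandas 2.3.3 and matplotlib 3.10.9. Genes in the text follow 1 rule: 12 per direction for repletion and 6 per direction for depletion by smallest p, 4 members of each list described in full, fixed genes of fibre type, fat, atrophy, Notch signalling and vitamin D, and any gene measured in 1 group only. Not every one of the 4 members of a list is named. Another 8 genes were named after their values were seen. A few genes held back for evaluations are not reported here. The members, lists and rule were chosen with earlier results of these data known. Alternatives covered the block, the arrays fitted, background correction, scaling, filters, weights, probes per gene and leaving out each array.

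Replicate numbers were checked as pairs: the correlations of same-numbered control and repletion deviations were 0.23, -0.49, 0.21 and 0.39, so the numbers were not taken to pair the samples.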

Additional observations from a re-analysis of the deposited data

Results flagged for a closer look

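Among 258 groups of 4 control or repletion arrays, for 129 genes, 13 held 1 array far from the other three, and chance alone flags about 1 group in 20. Of these, 4 came from repletion replicate 1: Adipoq at -1.12, Fcgr3a at -6.00 and Pcp4 at -5.91 were its low values, and Ppargc1a at -3.16 was above the other repletion arrays. Repletion replicate 4 stood apart for Ces1dl1 at -5.08, Cyp27a1 at 0.14 and Gbp2 at -0.48, of which only Gbp2 was low. Pllp at -3.77 stood above the rest in repletion replicate 2, the array with the high myelin signal. In controls, replicate 4 was high for Mbp at 0.37 and Ppp1r3d at -0.94. Control replicate 1 was high for Bmp6 at -4.80 and low for Hey2 at -3.70, and control replicate 2 was low for Oasl at -9.35.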

How the results depend on the processing

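No probe passed an adjusted p under 0.05 by limma under any of the 30 alternative settings. The lowest adjusted p by limma was 0.369, without control replicate 4 or depletion replicate 5. These are the only arrays of slide 4, so with slide as a block leaving out either gives nearly the same fit. The same holds for repletion replicate 4 and depletion replicate 6 on slide 5, so the 30 settings are not all separate. The 524 probes at an unadjusted p under 0.05 became 225 without a slide block, 905 and 339 with only the 8 control and repletion arrays with and without it, and 237 with normexp; leaving out 1 array gave 462 to 1018, the highest without repletion replicate 1 (381 higher, 637 lower). With the replicate block in place of slide there were 295, 125 higher and 170 lower, and 2 of 4 controls matched their own number best. The share of higher probes was 65.3%, but 27.4% with normexp, where the median of all probes was -0.11, 54.7% with quantile normalization and 52.2% with the authors' values. With normexp Dll4 turned to -0.0234, Fcgr3a to -0.0275, Foxo3 to -0.0749, Gzmk to -0.0264, Lrp2 to -0.235, Oasl to -0.0665, Slfn1 to -0.135 and Wdpcp to -0.0261; the cause was not tested. Hbb turned to -0.10 with the 8 arrays and slide as a block and to -0.0751 on slides 1 and 2 alone. Leaving out 1 array gave Fos -0.15 to 0.68 and Scd -1.11 to 0.21, both turned without repletion replicate 1, as did Adipoq, at 0.26. The macrophage, complement, interferon, slow fibre and Schwann cell medians were positive under every setting. Dim probes limit what can be read, and 4 arrays per group limit the precision.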
